A study of Mus musculus with 8 samples.

Results

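Cyclic AMP is made by adenylyl cyclases and acts in the cell mainly through protein kinase A (PKA). PKA is a complex of catalytic subunits, which phosphorylate target proteins, and regulatory subunits, which hold the catalytic subunits inactive until cyclic AMP binds them and which tie the kinase to anchoring proteins. In male germ cells the pathway is known for its part in sperm motility and capacitation, and the cyclic AMP responsive factor CREM is known as an activator of spermatid genes. The 8 genes of the pathway followed here were the cyclase genes Adcy3 and Adcy10, the catalytic subunit genes Prkaca and Prkacb, and the regulatory subunit genes Prkar1a, Prkar1b, Prkar2a and Prkar2b. Every probe set that the platform annotation gives to one of these genes was taken, which gave 25 probe sets for the 8 genes, of 45037 probe sets tested and 18193 genes with a probe set of their own. No member probe set was also annotated to another gene, and the number per gene was 4 for Adcy3, 1 for Adcy10, 2 for Prkaca, 3 each for Prkacb, Prkar1a and Prkar2b, 5 for Prkar1b and 4 for Prkar2a.

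Expression was measured on 8 Affymetrix whole-genome mouse arrays in germ cells of male mice on the FVB background, 4 to 5 weeks of age. The 4 groups were late spermatocytes and round spermatids, each from Hr6b+/+ (wild type) and Hr6b-/- (Hr6b knockout) testes, with 2 arrays per group. HR6B is a ubiquitin-conjugating enzyme encoded by Ube2b, and its loss in these animals was constitutive, so it was not limited to germ cells; the knockout males had Hr6b-/- mothers and the wild type males did not. Cells were separated by sedimentation at unit gravity and then on Percoll, and purity was judged on stained slides as similar in both genotypes. The sources used here do not say how many mice stood behind each preparation, and a p-value here reflects the spread of the samples alone, part of which may be technical.

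Signal stands below for the deposited value on a linear scale, and log2 fold changes are given with their standard error (SE) from a limma fit of all 8 arrays. A probe set was called higher or lower at a Benjamini-Hochberg adjusted p under 0.05 over all 45037 probe sets. Each gene was counted by its representative probe set, the one with the highest mean log2 value among those annotated to that gene alone. In the probe set names, _a_at marks probes that fit several transcripts of a gene, _s_at probes shared between transcripts that may belong to different genes, and _x_at probes that may also bind other sequences. Signals of different probe sets depend on their probes and were not compared with each other. Values were recomputed under alternatives, among them cyclic loess, which aligns the arrays to each other along the range of signal, setting the medians of expressed probe sets (mean signal of at least 100) equal between arrays, and leaving out each array; an adjusted p given as "up to" a value is the highest over all alternatives run for that probe set.

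The targeted gene and the cell type labels were checked first. Of 4 Ube2b probe sets, 2 were lower in knockout spermatocytes and 4 in knockout spermatids; the probe set with the highest signal had group means of 3102 in wild type and 828 in knockout spermatocytes, and of 4606 and 1006 in spermatids. All 10 round spermatid markers were higher in spermatids than in spermatocytes in both genotypes. Of 10 spermatocyte markers, 5 were lower in wild type spermatids, while Ccna1 and Tex15, also listed as spermatocyte markers, were higher there, with log2 fold changes of 2.49 and 4.54. Knockout spermatocytes stood apart from wild type in the spermatid markers, whose summed signal was 26137 to 35477 per array against 8024 to 11832 in wild type spermatocytes and 158687 to 161208 in wild type spermatids.

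Promoters of 3 members are shown because the members they belong to carry the main results: Adcy10 had the largest stage difference among the representative probe sets, Prkar1a had probe sets that moved in opposite directions and the only full cyclic AMP response element in the members' promoter windows, and Prkar2b differed between genotypes. Each sequence is the 250 bases before an annotated start in RefSeq, build GRCm38.p6, written 5′ to 3′ on the strand of the gene. Capitals mark CCAAT in Adcy10 (chr1:165484933-165485182, plus strand), TGACGTCA, the cyclic AMP response element, in Prkar1a (chr11:109650699-109650948, plus strand) and GGGCGG on either strand, the GC box, in Prkar2b (chr12:32061278-32061527, minus strand).
Adcy10: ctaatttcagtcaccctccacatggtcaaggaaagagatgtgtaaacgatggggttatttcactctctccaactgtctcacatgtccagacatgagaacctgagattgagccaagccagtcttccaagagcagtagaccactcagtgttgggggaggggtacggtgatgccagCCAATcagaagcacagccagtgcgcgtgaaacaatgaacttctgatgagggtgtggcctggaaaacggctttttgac
Prkar1a: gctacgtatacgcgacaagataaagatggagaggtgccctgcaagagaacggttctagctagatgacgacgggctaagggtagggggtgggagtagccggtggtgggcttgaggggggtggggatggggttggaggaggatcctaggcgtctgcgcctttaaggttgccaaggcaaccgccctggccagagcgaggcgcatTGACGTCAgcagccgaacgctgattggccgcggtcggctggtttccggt
Prkar2b: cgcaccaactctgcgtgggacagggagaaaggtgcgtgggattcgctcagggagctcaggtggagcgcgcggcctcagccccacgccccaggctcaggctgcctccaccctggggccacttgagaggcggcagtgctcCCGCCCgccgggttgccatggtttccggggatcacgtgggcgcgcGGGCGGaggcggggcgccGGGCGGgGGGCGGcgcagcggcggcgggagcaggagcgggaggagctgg

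The table of promoters held 22 windows of the 8 members, each from 250 bases before to 50 after a start, and motifs were searched on both strands. TGACGTCA was in 2 of the 22 windows, both of Prkar1a and overlapping, so they share 1 element, whose first base lies 49 bases before the annotated start in the sequence shown; 1.79% of 32851 windows of all genes held it. TGACG, the shorter form that TGACGTCA contains, was in 7 of the 22 windows (of Prkaca, Prkacb, Prkar1a, Prkar1b and Prkar2a) and in 20.8% of all windows. CCAAT was in 7 of the 22 (of Adcy3, Adcy10, Prkaca, Prkar1a and Prkar1b) and in 37.4% of all windows, and GGGCGG was in 11, of every member but Adcy10 and Prkar2a, and in 35.7% of all windows. A member had up to 6 windows, some of which overlap. These matches describe letters in the windows and were not tested for binding.

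The first question was how the members differed between spermatocytes and spermatids. In wild type, 7 of the 8 genes were higher in spermatids and 1, Prkacb, was lower, where 33.7% of all 18193 genes were higher and 29.4% lower. The median log2 fold change of the 8 members was 0.92, beside 0.15 over all genes. In the knockout, 4 members were higher (Adcy10, Prkar1a, Prkar1b and Prkar2a), Prkacb was lower and Adcy3, Prkaca and Prkar2b were not called, where 41.6% of all genes were higher and 31.1% lower. The median was 0.45, beside 0.21 over all genes. These knockout calls depend on scaling. After cyclic loess, and also with expressed medians set equal, Adcy3, Prkaca and Prkar2b were called higher in knockout spermatids and Prkacb was not called. The wild type calls of the 8 members held under both scalings. By probe sets, 17 of 25 were higher and 4 lower in wild type, against 53.3% of all probe sets called in either direction, and 15 were higher and 4 lower in the knockout, against 63.0%. A difference between these cell preparations can come from fewer cells of a type or from less RNA per cell, and the 2 cannot be told apart. Of 10 Sertoli cell markers, 6 were lower and none higher with stage in wild type, and 6 lower and 2 higher in the knockout. Their summed signal per array was 3201 to 4111 in wild type spermatocytes and 1077 to 1164 in wild type spermatids. In the knockout it was 3154 to 3879 and 1110 to 1151. The part of Sertoli cells in the stage differences was not tested.

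By group mean of the representative probe set, Adcy3, Prkaca, Prkar1a and Prkar1b ran from wild type spermatids through knockout spermatids and knockout spermatocytes to wild type spermatocytes. Adcy10, Prkar2a and Prkar2b ran from wild type spermatids through knockout spermatids and wild type spermatocytes to knockout spermatocytes, and Prkacb ran from wild type spermatocytes through knockout spermatocytes and knockout spermatids to wild type spermatids. Among neighbours in these orders, the 2 spermatocyte groups differed by the test for no member, the 2 spermatid groups only for Prkaca and Prkar2b, and the 2 knockout groups for Prkar1a, Prkar1b and Prkacb but not for Adcy3 or Prkaca. Knockout spermatids were not tested against wild type spermatocytes.

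**Figure D1:**
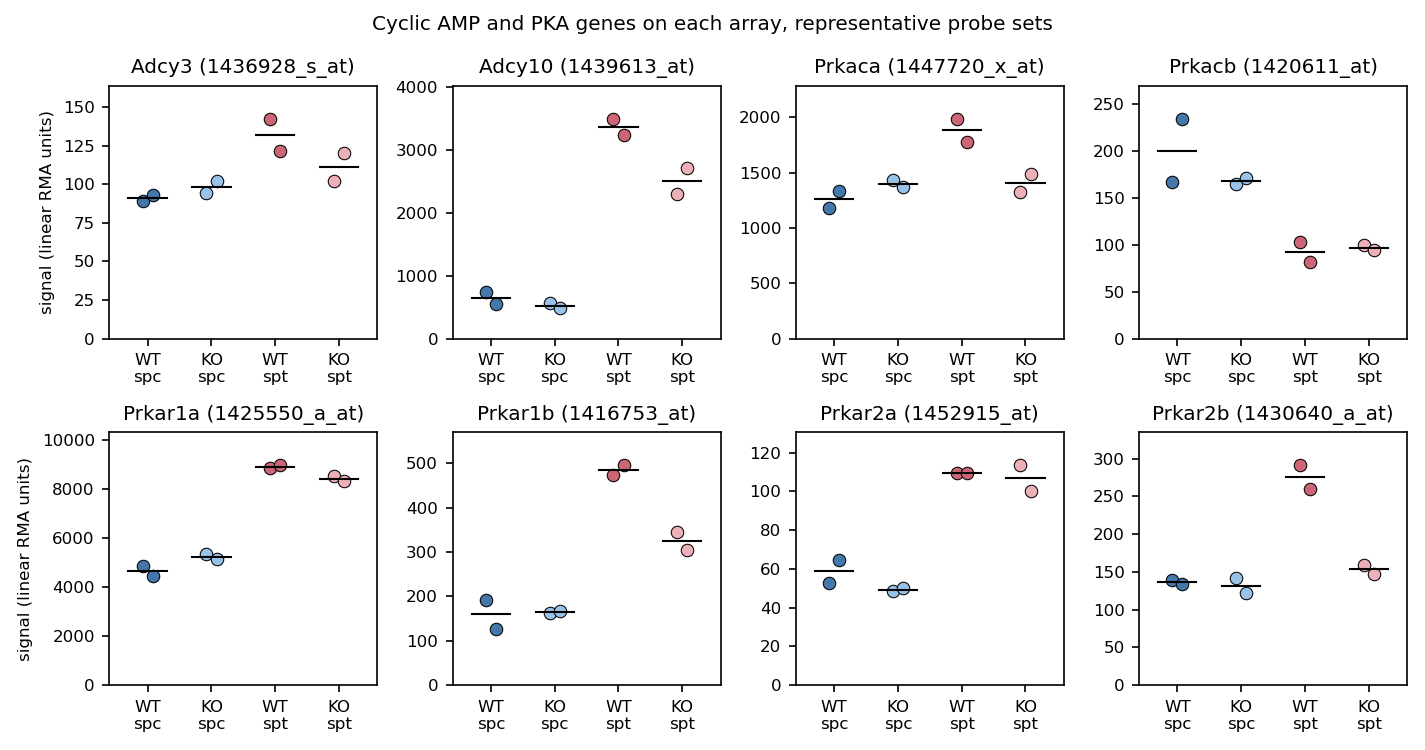
Signal (linear RMA units, y axes from 0) of each member's representative probe set on each array, in wild type (WT) and Hr6b knockout (KO) spermatocytes (spc) and spermatids (spt); points are arrays and lines are means of 2 arrays. Adcy10 goes from 478 to 745 in the spermatocyte arrays to 2292 to 3493 in the spermatid arrays, and Prkar2b reaches 259.8 and 291 on the wild type spermatid arrays and at most 159 on the others.

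Among the cyclases, Adcy10 encodes the soluble adenylyl cyclase, which bicarbonate stimulates and which sperm need for motility. Its single probe set, 1439613_at, had signals of 745 and 544 in wild type spermatocytes, 563 and 478 in knockout spermatocytes, 3493 and 3230 in wild type spermatids and 2292 and 2714 in knockout spermatids. Every spermatid array was above every spermatocyte array. The log2 fold change from spermatocytes to spermatids was 2.40 (SE 0.17, limma adjusted p = 5.57e-07) in wild type, a 5.28-fold difference, and 2.27 (SE 0.17, adjusted p = 7.73e-07) in the knockout, a 4.81-fold difference. The arrays of the 2 spermatocyte groups overlapped, and those of the 2 spermatid groups did not.

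Adcy3 encodes a membrane-bound cyclase, best known from olfactory neurons. Its representative probe set, 1436928_s_at, had signals of 89.3 and 93.2 in wild type spermatocytes, 94.4 and 102 in knockout spermatocytes, 142 and 121 in wild type spermatids and 102 and 120 in knockout spermatids. The wild type spermatid arrays were above all spermatocyte arrays, while knockout spermatids overlapped knockout spermatocytes. The stage log2 fold change was 0.53 (SE 0.13, limma adjusted p = 0.00656) in wild type, and 0.17 (SE 0.13, adjusted p = 0.272) in the knockout. That knockout value depends on scaling: it was called after cyclic loess and with expressed medians set equal, and reached 0.70 among the alternatives. Without wild type spermatid replicate 1 the wild type value was 0.41 with an adjusted p of 0.0589. Of the other 3 Adcy3 probe sets, 1421960_at and 1436929_x_at were higher in spermatids in both genotypes and 1421959_s_at in the knockout, with log2 fold changes of 0.34 to 0.72 in all 6 comparisons. The calls of 1436929_x_at in wild type (without wild type spermatocyte replicate 2 or spermatid replicate 1) and in the knockout (without either spermatocyte replicate or spermatid replicate 1) rested on single arrays, with adjusted p up to 0.0714 and 0.393. So did that of 1421959_s_at in the knockout (without spermatocyte replicate 1 or either spermatid replicate), with an adjusted p up to 0.134, and both knockout calls were lost after cyclic loess.

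The catalytic subunit genes went in different directions. Prkaca encodes the Cα subunit, of which a variant transcript is made in germ cells and found in sperm. Its representative probe set, 1447720_x_at, had signals of 1182 and 1337 in wild type spermatocytes, 1434 and 1365 in knockout spermatocytes, 1985 and 1780 in wild type spermatids and 1329 and 1488 in knockout spermatids. Both wild type spermatid arrays lay above the other 6 arrays, and knockout spermatids overlapped both spermatocyte groups. The stage log2 fold change was 0.58 (SE 0.12, limma adjusted p = 0.00251) in wild type and 0.01 (95% interval -0.27 to 0.28, adjusted p = 0.966) in the knockout. That knockout value depends on scaling: it was 0.61 after cyclic loess and 0.54 with the medians of expressed probe sets set equal, both called. The other Prkaca probe set, 1450519_a_at, had a mean of 544 in wild type spermatocytes and 826 in wild type spermatids, a log2 fold change of 0.63 (SE 0.20, limma adjusted p = 0.0229). Its knockout value was 0.38 (adjusted p = 0.123) and was likewise called under both of these scalings. The wild type call was lost without spermatocyte replicate 2 or spermatid replicate 2, with an adjusted p up to 0.188.

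Prkacb, which encodes the Cβ subunit, was the member whose representative probe set fell. Probe set 1420611_at had signals of 167 and 234 in wild type spermatocytes, 165 and 172 in knockout spermatocytes, 103 and 82.1 in wild type spermatids and 100.1 and 94.1 in knockout spermatids. All spermatid arrays were below all spermatocyte arrays. It fell by 1.10 on the log2 scale (SE 0.17, limma adjusted p = 0.000285) in wild type and by 0.79 (SE 0.17, adjusted p = 0.00237) in the knockout, and the knockout fall was not called after cyclic loess (-0.44, adjusted p = 0.055) or with expressed medians set equal (-0.26, adjusted p = 0.166). The other 2 Prkacb probe sets had signals under 30 on all arrays and were not called in either genotype.

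**Figure D2:**
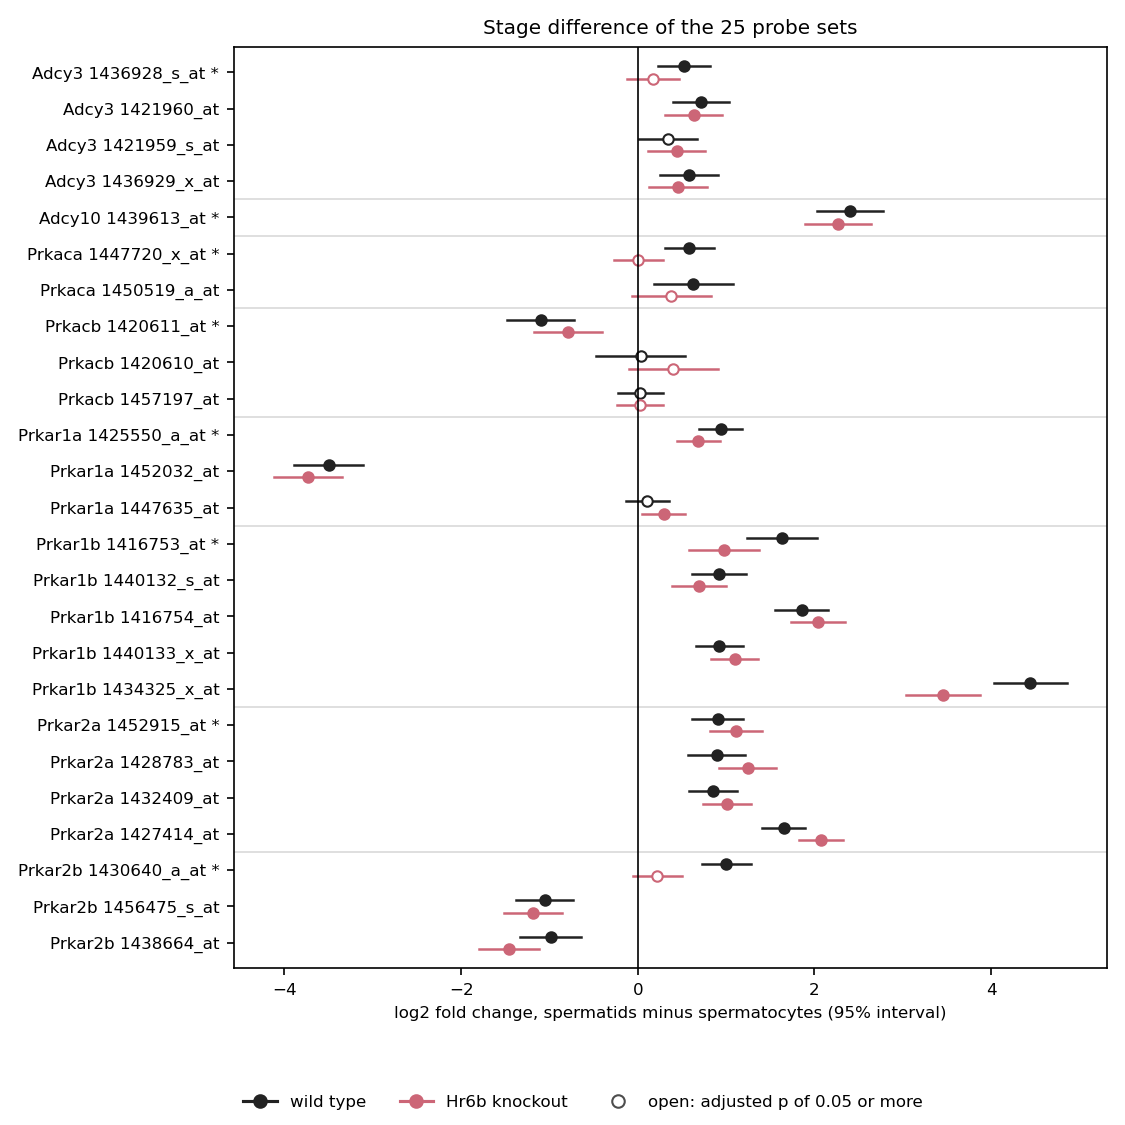
Log2 fold change from spermatocytes to spermatids for the 25 probe sets, with 95% intervals, in wild type (black) and Hr6b knockout (red); filled points are called, open points are not, and * marks the representative probe set. Most points lie right of 0, while Prkar1a 1452032_at lies at -3.50 in wild type and -3.73 in the knockout, apart from the other probe sets of its gene.

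Of the type I regulatory subunits, Prkar1a encodes RIα, which is made in most tissues. Its representative probe set, 1425550_a_at, had signals of 4836 and 4435 in wild type spermatocytes, 5333 and 5117 in knockout spermatocytes, 8821 and 8945 in wild type spermatids and 8505 and 8314 in knockout spermatids. The 4 spermatid arrays were above the 4 spermatocyte arrays, with a log2 fold change of 0.94 (SE 0.11, limma adjusted p = 3.15e-05) in wild type and 0.69 (SE 0.11, adjusted p = 0.000308) in the knockout. Probe set 1452032_at went the other way, with signals of 1639 and 2426 in wild type spermatocytes, 1638 and 1891 in knockout spermatocytes, 179.8 and 173 in wild type spermatids and 127 and 138 in knockout spermatids. It fell by 3.50 (SE 0.17, adjusted p = 4.55e-08) in wild type and by 3.73 (SE 0.17, adjusted p = 2.79e-08) in the knockout, 11.3-fold and 13.3-fold, with no overlap between stages. The direction for Prkar1a therefore depends on the probe set: averaged over its 3 probe sets, the stage log2 fold change was -0.82 in wild type and -0.92 in the knockout. The third, 1447635_at, had signals of 14.7 to 19.7 on all arrays. With stage it was not called in wild type (0.11) and was called higher in the knockout (0.30, limma adjusted p = 0.0370), in 6 of 12 alternatives.

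Prkar1b encodes RIβ, best known from the brain, and all 5 of its probe sets were higher in spermatids in both genotypes. The representative, 1416753_at, had signals of 193 and 127 in wild type spermatocytes, 162 and 168 in knockout spermatocytes, 473 and 495 in wild type spermatids and 345 and 304 in knockout spermatids. The groups of the 2 stages did not overlap; the log2 fold change was 1.63 (SE 0.18, limma adjusted p = 1.81e-05) in wild type and 0.97 (SE 0.18, adjusted p = 0.000762) in the knockout. Probe set 1434325_x_at had the largest stage difference among the 25 in wild type, from 26.0 and 18.4 in wild type spermatocytes to 468 and 485 in wild type spermatids, and from 20.3 and 17.4 to 237 and 178 in the knockout. Its log2 fold changes were 4.45 (SE 0.19, adjusted p = 1.45e-08) and 3.45 (SE 0.19, adjusted p = 7.73e-08). The other 3 Prkar1b probe sets had log2 fold changes of 0.69 to 2.04.

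Type II regulatory subunits are those that most A-kinase anchoring proteins bind. Prkar2a encodes RIIα, the form best known from the sperm flagellum, and all 4 of its probe sets were higher in spermatids in both genotypes. The representative, 1452915_at, had signals of 52.8 and 64.6 in wild type spermatocytes, 48.5 and 49.9 in knockout spermatocytes, 109.7 and 109.2 in wild type spermatids and 113 and 100.1 in knockout spermatids. Spermatid arrays were all above spermatocyte arrays, by 0.91 (SE 0.13, limma adjusted p = 0.000158) on the log2 scale in wild type and 1.11 (SE 0.13, adjusted p = 2.99e-05) in the knockout. Across the other 3 probe sets the log2 fold change was 0.85 to 1.65 in wild type and 1.01 to 2.07 in the knockout. All 3 had signals below 100 on every array. The largest value in each genotype was that of 1427414_at, with means of 12.6 in wild type spermatocytes and 39.5 in wild type spermatids.

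Prkar2b encodes RIIβ, best known from brain and fat. Its representative probe set, 1430640_a_at, had signals of 139.7 and 135 in wild type spermatocytes, 142 and 121 in knockout spermatocytes, 291 and 259.8 in wild type spermatids and 159 and 148 in knockout spermatids. The wild type spermatid arrays stood above all others, with a stage log2 fold change of 1.00 (SE 0.13, limma adjusted p = 5.39e-05); the knockout value was 0.22 (SE 0.13, adjusted p = 0.146) and was called after cyclic loess (0.71) and with expressed medians set equal (0.75). The other 2 probe sets of the gene fell: 1456475_s_at by 1.05 in wild type and 1.18 in the knockout, and 1438664_at by 0.99 and 1.46. Their signals were 29.5 to 42.0 in spermatocytes and 10.4 to 18.7 in spermatids, so both lay below 100 on every array. Averaged over the 3 probe sets, Prkar2b was at -0.35 in wild type and -0.81 in the knockout, and its direction, like that of Prkar1a, rests on the probe set chosen. Which transcripts each probe set detects was not analysed here.

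**Figure D3:**
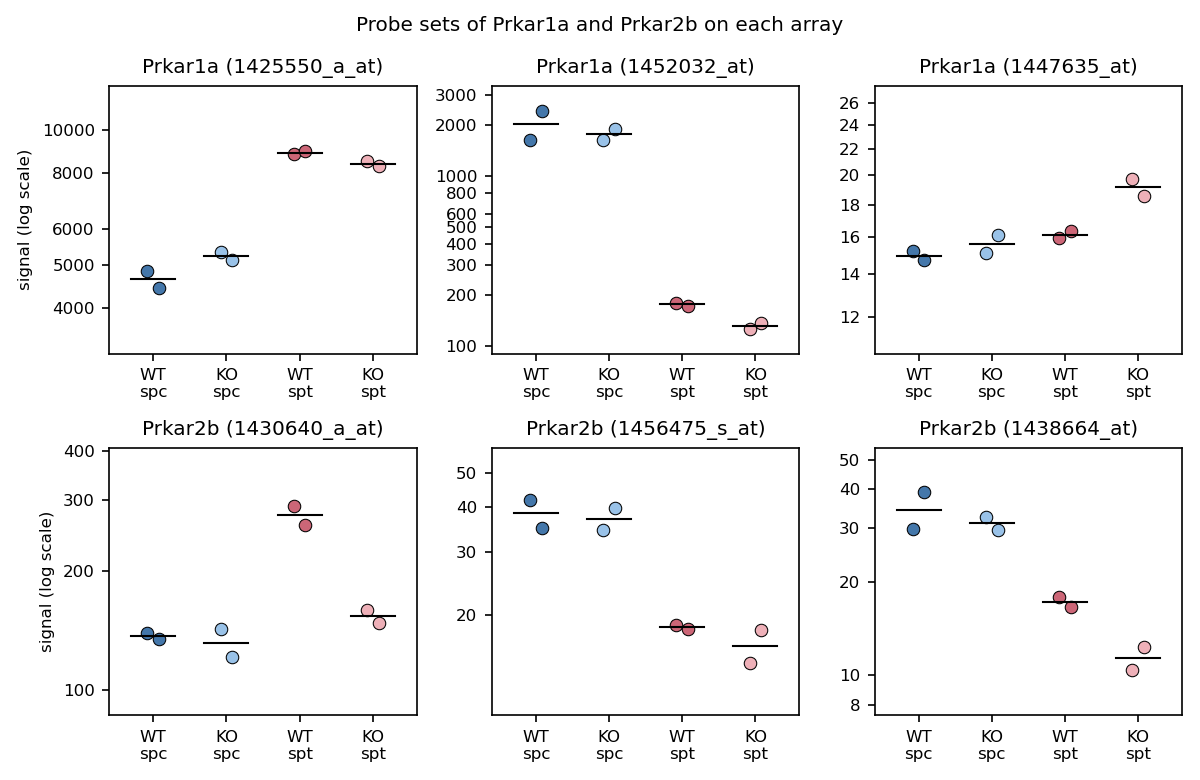
Signal on each array (log scale) of the 3 Prkar1a and the 3 Prkar2b probe sets, in wild type (WT) and Hr6b knockout (KO) spermatocytes (spc) and spermatids (spt); points are arrays and lines are means of 2 arrays. In each gene the representative probe set (left) is higher in wild type spermatids than in wild type spermatocytes, while Prkar1a 1452032_at and the other Prkar2b probe sets are lower in spermatids.

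The second question was whether loss of HR6B went with a difference in the members. In spermatocytes no member was called, by any of its probe sets: the lowest adjusted p from limma was 0.555, 0 of the 25 had an unadjusted p under 0.05, and log2 fold changes lay between -0.30 and 0.17. Of all genes, 2.22% were higher and 0.511% lower in knockout spermatocytes. The median over the 8 members was 0.01, beside 0.00 over all genes. The 95% interval was -0.67 to 0.08 for Adcy10 and -0.34 to 0.22 for Prkar2b, so differences within these intervals were compatible with the data. The intervals are not limits of detection, and with 2 arrays per group a larger difference could also have gone uncalled. Beside this, 7 of 10 round spermatid markers were called higher in the same knockout arrays. Among them was the protamine gene Prm2, at 6593 and 4538 against 1413 and 844 in wild type. The part of these markers' cells in the values of the members was not tested.

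In spermatids, 2 of the 8 members were lower in the knockout, Prkar2b and Prkaca, and none was higher, where 12.9% of all genes were lower and 6.93% higher. The median was -0.33, beside 0.01 over all genes, and 7 of the 8 values were negative. Of the 25 probe sets, 4 were lower and 1 higher, where 14.5% of all probe sets were called in either direction. Directions here lean on scaling: of all probe sets called in knockout spermatids, 66.6% were lower with the deposited values, 50.0% after cyclic loess and 22.3% with the medians of expressed probe sets set equal, and the median over expressed probe sets was -0.16 with the deposited values. Sertoli cell markers moved in the same arrays: 3 of 10 were higher (Aard, Inha and Cldn11) and 1 lower (Tjp1) in knockout spermatids. These were named after their values were seen. Aard went from a group mean of 31.9 in wild type to 144 in knockout spermatids, Inha from 68.0 to 142 and Cldn11 from 10.9 to 24.1. The list's median log2 fold change was 0.34, beside 0.01 over all genes. Its summed signal, which includes the lower Tjp1, was 1110 to 1151 in knockout and 1077 to 1164 in wild type spermatids. Of the markers not called, Rhox5 and Fshr were at 0.57 and 0.55, and Amh at 0.12. Sox9, Wt1 and Gata4 lay between -0.07 and 0.03, with group means of 29.3 to 40.5 in spermatids. Of 7 spermatogonia markers 2 were higher in knockout spermatids (Sohlh1 and Uchl1, also named after their values were seen). Their list had a summed signal of 534 to 557 against 371 to 415 in wild type spermatids. Of 3 Leydig cell markers none was called. Of 10 spermatocyte markers 2 were lower in knockout spermatids, Tex15 at -0.51 and Mybl1 at -0.58, named likewise, and the list's summed signal was 16226 to 17312 there against 20901 to 21489 in wild type spermatids. None of the 10 round spermatid markers was called (lowest limma adjusted p = 0.0824), with a summed signal of 191055 to 192808 against 158687 to 161208. The part of these cells in the differences below was not tested.

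Prkar2b showed the clearest genotype difference among the representative probe sets. Its mean signal was 275 ± 22.2 in wild type spermatids and 153 ± 8.26 in knockout spermatids (SD, n = 2 arrays each), against 137 ± 3.70 and 132 ± 14.7 in spermatocytes. It fell by 0.84 on the log2 scale (SE 0.13, 95% interval -1.12 to -0.56, limma adjusted p = 0.00243), 1.79-fold, with the 2 groups not overlapping. The value was -0.71 (adjusted p = 0.0063) after cyclic loess and -0.64 (adjusted p = 0.00999) with expressed medians set equal. Probe set 1438664_at of the same gene also fell, by 0.61 (SE 0.15, adjusted p = 0.0267), from signals of 17.9 and 16.5 to 10.4 and 12.3. It was not called with expressed medians set equal (-0.41, adjusted p = 0.0606), nor without wild type spermatid replicate 1 (-0.55), wild type spermatid replicate 2 (-0.67) or knockout spermatid replicate 1 (-0.49). The third probe set was at -0.18 (adjusted p = 0.477).

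Prkaca was at the edge of the threshold in spermatids. Its mean was 1882 ± 145 in wild type and 1408 ± 112 in the knockout (SD, n = 2), a log2 fold change of -0.42 (SE 0.12, limma adjusted p = 0.04998). The call was lost in 10 of 14 alternatives, among them both scalings (-0.18 and -0.22) and each fit without 1 of the 4 spermatid arrays (-0.50 to -0.34) or without 1 of the 2 knockout spermatocyte arrays (-0.42, adjusted p = 0.081), and the other Prkaca probe set was at -0.28 (adjusted p = 0.407).

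For Prkar1b the probe sets gave different answers. The representative was at 484 ± 15.4 in wild type and 325 ± 29.0 in knockout spermatids (SD, n = 2), a log2 fold change of -0.58 (SE 0.18, limma adjusted p = 0.0556), called in 5 of 14 alternatives, among them the fits without either wild type spermatocyte array (adjusted p = 0.0103). Probe set 1434325_x_at fell by 1.21 (SE 0.19, adjusted p = 0.00284), 2.32-fold, and was at -1.24 after cyclic loess and -1.01 with expressed medians set equal, called in both. Probe set 1416754_at, by contrast, had signals of 251 and 265 in wild type spermatids and 308 and 289.9 in knockout spermatids, a log2 fold change of 0.21 (adjusted p = 0.354), and the other 2 were at -0.31 and 0.05, not called.

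The single higher probe set was 1427414_at of Prkar2a, with signals of 40.0 and 39.1 in wild type spermatids and 56.0 and 58.5 in knockout spermatids. It rose by 0.53 (SE 0.11, limma adjusted p = 0.0107), and the call was lost, with adjusted p of 0.0527 to 0.0615, without wild type spermatid replicate 1, wild type spermatid replicate 2 or knockout spermatid replicate 2. The representative Prkar2a probe set was at -0.04 (adjusted p = 0.883) and the other 2 at 0.21 and 0.23, not called. Adcy10 was at -0.43 (95% interval -0.80 to -0.06, adjusted p = 0.122) with the 2 groups of spermatid arrays not overlapping, and Adcy3 at -0.25 (adjusted p = 0.263). Prkacb was at 0.07 (adjusted p = 0.827). Prkar1a was at -0.08 (adjusted p = 0.698) on its representative probe set, which turned to 0.13 after cyclic loess and 0.12 with expressed medians set equal, and at -0.41 (adjusted p = 0.152) on 1452032_at.

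**Figure D4:**
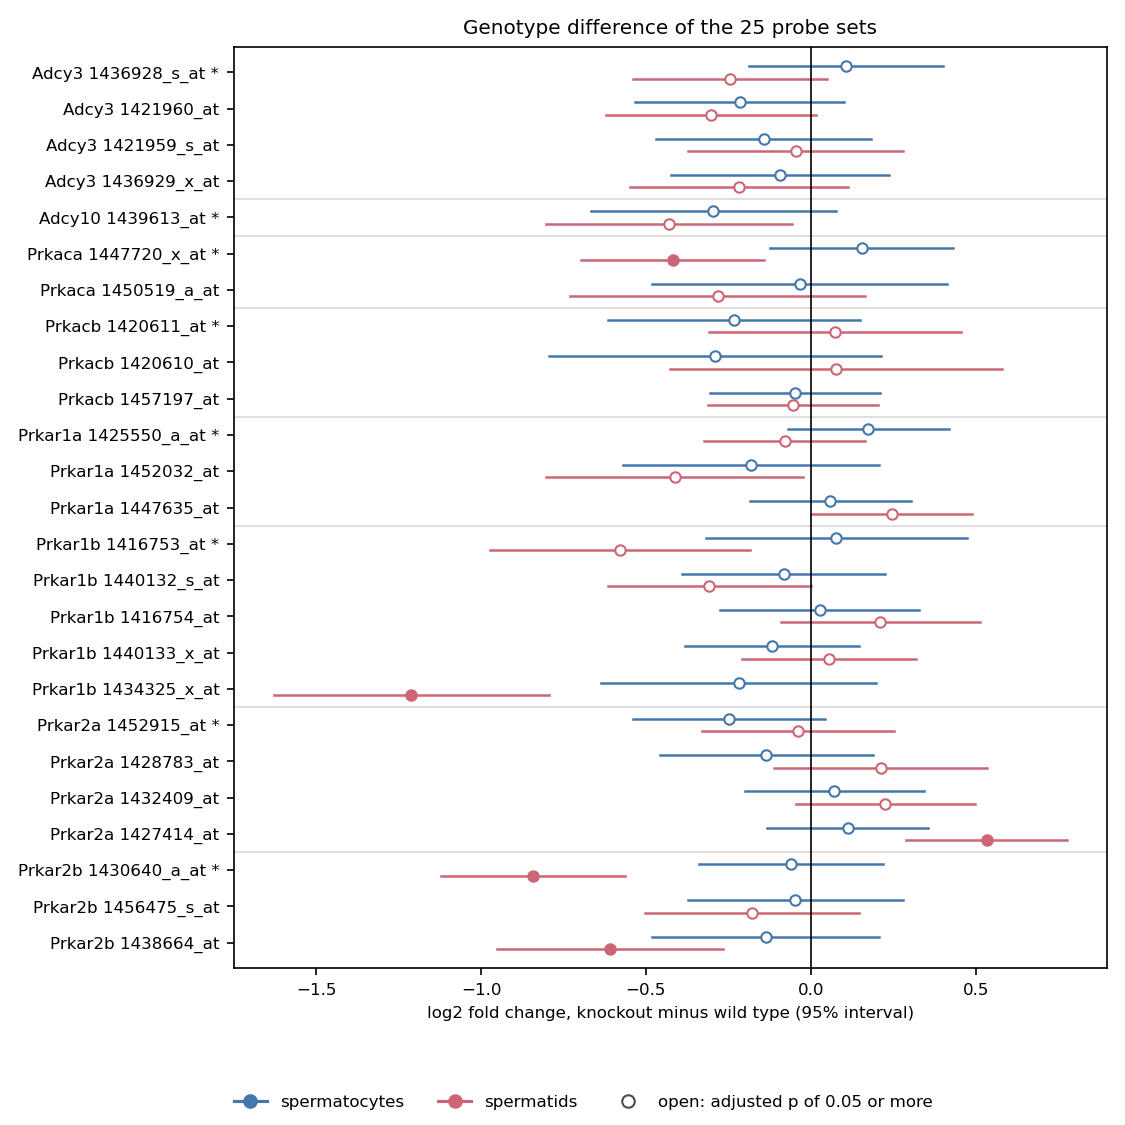
Log2 fold change of knockout minus wild type for the 25 probe sets, with 95% intervals, in spermatocytes (blue) and spermatids (red); filled points are called, open points are not, and * marks the representative probe set. All 25 spermatocyte points are open, and 5 spermatid points are filled: 1 of Prkaca, 1 of Prkar1b and 2 of Prkar2b left of 0, and 1 of Prkar2a right of 0.

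Whether the knockout effect differed between the stages was tested as an interaction, the effect in spermatids minus that in spermatocytes. Of the 8 members 1 was called, Prkar2b, at -0.78 (SE 0.18, limma adjusted p = 0.0396), where 4.61% of all genes were lower and 2.11% higher. The call was lost after cyclic loess, with expressed medians set equal and in each fit without 1 of the 8 arrays, with values of -0.90 to -0.55 over 13 alternatives. Next were Prkaca at -0.57 (adjusted p = 0.0929) and Prkar1b at -0.66 (adjusted p = 0.159) on its representative probe set and -0.99 (adjusted p = 0.0622) on 1434325_x_at. The stage rises of Prkaca and Adcy3 were called in wild type and, with the deposited values, not in the knockout. They were therefore not shown to differ between genotypes. For Adcy3 the interaction was -0.35 (limma adjusted p = 0.304).

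Other genes of the pathway were taken from lists of 66 genes, of which 63 had a probe set of their own. In wild type spermatids 26 were higher and 19 lower than in spermatocytes, where 33.7% of all genes were higher and 29.4% lower. The median log2 fold change was 0.14, beside 0.15 over all genes. In knockout against wild type spermatocytes, 5 were higher and 1 lower, where 2.22% of all genes were higher and 0.511% lower. In spermatids 2 were higher and 10 lower, where 6.93% of all genes were higher and 12.9% lower. That split in spermatids was 2 and 5 after cyclic loess and 10 and 5 with expressed medians set equal. The same shares over all genes stand beside the counts of each list below. These counts describe the lists, which were not tested as sets.

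Upstream of PKA, 1 of the 8 other adenylyl cyclases was higher in wild type spermatids, Adcy5 at 0.62, and 2 were lower, Adcy9 at -0.97 and Adcy2 at -0.86. None of the 8 was called between genotypes. Among 7 G protein alpha subunits that act on adenylyl cyclase, 5 were lower in wild type spermatids and none was higher. Gnai3, which encodes an inhibitory subunit, went from 2001 to 339.7 (group means), a log2 fold change of -2.55 (limma adjusted p = 1.15e-07), and Gnai1, another inhibitory subunit, was at -1.64. Gnas, which encodes the stimulatory subunit, had means of 576 in wild type spermatocytes and 518 in wild type spermatids (-0.15, adjusted p = 0.389). Gnao1 was the single pathway gene called lower in knockout spermatocytes, with signals of 221 and 206 against 432 and 404 in wild type (-0.97, adjusted p = 0.00326); it was named after its values were seen, and the call held in all 14 alternatives.

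Of 3 PKA inhibitor proteins, which bind free catalytic subunit, Pkib was higher in spermatids, with signals of 88.7 and 43.1 in wild type spermatocytes and 3517 and 3749 in wild type spermatids, a log2 fold change of 5.88 (SE 0.27, limma adjusted p = 2.94e-08). Pkig had means of 4057 and 3827 in these groups and was not called. In knockout spermatocytes Pkib had signals of 240 and 183, above both wild type arrays (1.76, adjusted p = 0.0124), in the same arrays in which round spermatid markers were higher. That call was lost without knockout spermatocyte replicate 1. It was also lost in the fit of the spermatocyte arrays alone, in which none of the 63 pathway genes was called higher.

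A-kinase anchoring proteins hold PKA at sites in the cell, in sperm chiefly along the tail. Of 15 such genes, 9 were higher and 4 lower in wild type spermatids. Akap1, whose product sits at mitochondria, went from a mean of 122 to 4846 (5.36, limma adjusted p = 2.39e-08) and Akap4, the main protein of the fibrous sheath, from 327 to 11612 (5.18, adjusted p = 7.01e-09), while Akap7 and Akap8 fell by 2.21 and 2.02. Akap1 and Akap4 were also higher in knockout spermatocytes, at 1.76 and 1.88, and Akap1 in knockout spermatids, at 0.84. Akap11 and Akap10 were lower in knockout spermatids, at -0.78 and -0.51. Of these genotype calls, Akap11 held in all 14 alternatives and Akap4 in 13 of them, all but the fit of the spermatocyte arrays alone. Akap1 in spermatocytes was lost in that fit and without knockout replicate 1. Akap1 and Akap10 in spermatids were lost without any 1 of the 4 spermatid arrays, Akap10 also under both scalings. Of 4 sperm proteins with a docking domain like that of the type II regulatory subunits, 3 were higher in wild type spermatids, among them Cabyr at 5.67 and Ropn1 at 5.03, and Ropn1 was higher in knockout spermatocytes at 0.90, called in 6 of 14 alternatives.

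Cyclic AMP phosphodiesterases, which break cyclic AMP down, changed in both directions with stage: of 15 measured, 8 were higher in wild type spermatids and 4 lower. Pde1a went from a mean of 292 to 6807 (4.54, limma adjusted p = 2.08e-09) and Pde4a from 89.0 to 1126 (3.65), while Pde7a fell by 1.18 and Pde3b by 1.14. In knockout spermatids 6 were lower and none was higher. Pde4b had signals of 167 and 189 in wild type spermatids and 53.4 and 52.9 in knockout spermatids, with no overlap, and fell by 1.74 (SE 0.17, adjusted p = 0.000419). Pde8b fell by 0.85, from a mean of 41.6 to 23.2. The other 4, named after their values were seen, were Pde1c, Pde10a, Pde8a and Pde2a, at -0.77, -0.71, -0.56 and -0.53. Pde4b, Pde8b, Pde1c and Pde10a were called in every alternative run for them, including both scalings, whereas Pde8a and Pde2a were not called under either scaling, nor without wild type or knockout spermatid replicate 1, and Pde2a not without replicate 2 of either group (adjusted p up to 0.0718 for Pde8a and 0.236 for Pde2a).

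Other cyclic AMP binding proteins were few: of 4 measured, Bves and Popdc3 were higher in wild type spermatids (0.51 and 0.38) and Rapgef3, an exchange factor that cyclic AMP activates, was lower (-1.27). The signal of Popdc3 was low, with means of 11.6 in wild type spermatocytes and 15.1 in wild type spermatids. Bves was not called without wild type spermatid replicate 1 (adjusted p = 0.0546), nor Popdc3 without that array, without wild type spermatocyte replicate 2 or after cyclic loess (adjusted p up to 0.0989). Popdc2 was higher in knockout spermatids (0.44, limma adjusted p = 0.0446), called in 3 of 13 alternatives. Of 6 cyclic AMP response factors and partners, Crem went from means of 2055 to 6195 in wild type (1.59, adjusted p = 5.71e-07) and Fhl5, which encodes a coactivator of CREM, from 157 to 8217 (5.76), while Creb1 fell by 1.59 and Crtc2 fell from a mean of 175 to 62.6. Creb1 was lower in knockout spermatids (-0.50, adjusted p = 0.0166) and Fhl5 higher in knockout spermatocytes (1.32, adjusted p = 0.0178). The first call was lost under both scalings and without replicate 1 of either spermatid group. The second was lost without either knockout spermatocyte array and in the fit of the spermatocyte arrays alone. Prkx, a PKA-related kinase, was not called in wild type between stages (-0.05).

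**Figure D5:**
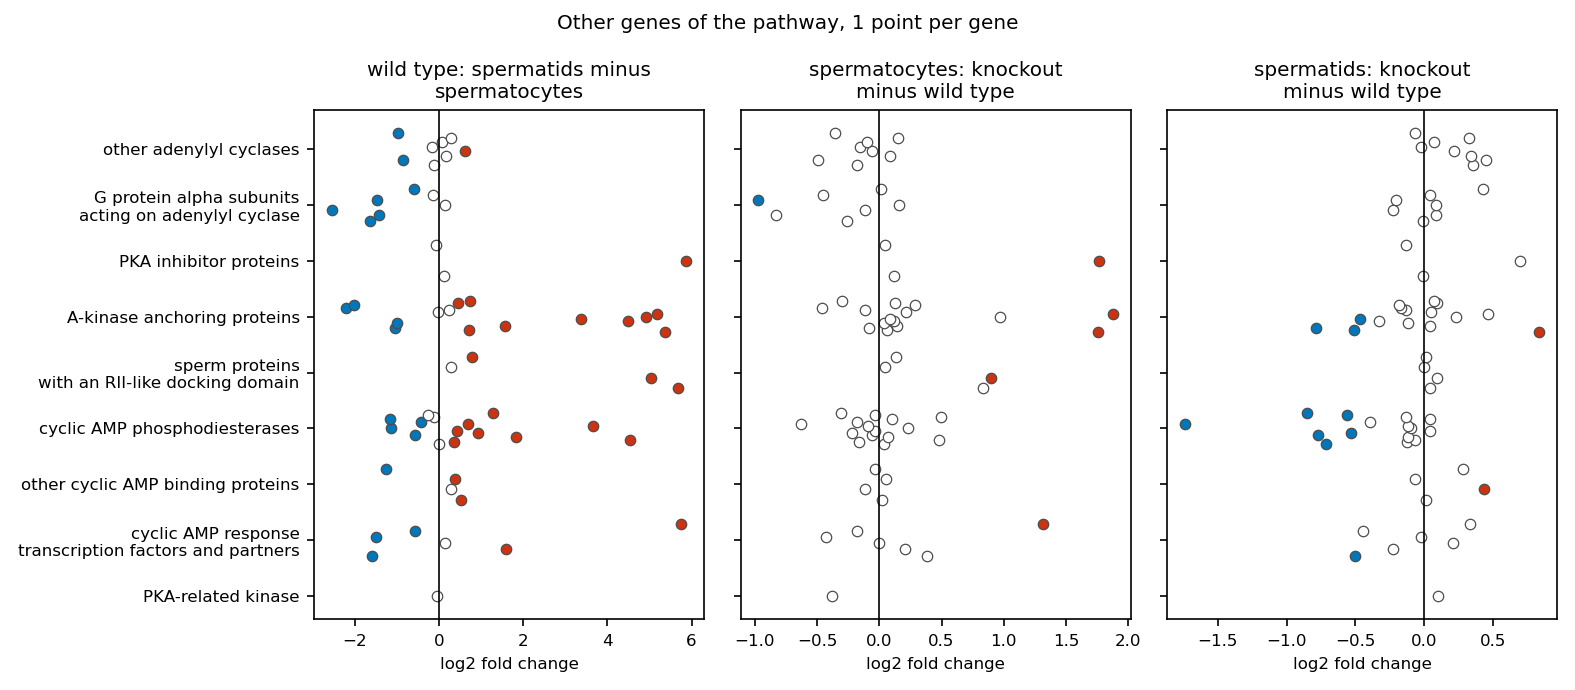
Log2 fold change of the 63 other pathway genes, 1 point per gene by its representative probe set, for stage in wild type (left) and for knockout minus wild type in spermatocytes (middle) and spermatids (right); red points are called higher, blue lower and open points are not called. Pkib, Akap1, Akap4, Ropn1 and Fhl5 are the 5 red points in the middle panel, and 6 of the 10 blue points at right are phosphodiesterases.

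The 5 pathway genes called higher in knockout spermatocytes had 5.03 to 5.88 as their stage log2 fold change in wild type. Of 10 round spermatid markers, 7 were called higher in the same arrays. Other pathway genes with a large stage rise were not called there. Cabyr, at 5.67 with stage, was at 0.84 in knockout spermatocytes (limma adjusted p = 0.0613). Akap3, Pde1a and Akap14, at 4.92, 4.54 and 4.49 with stage, were at 0.97, 0.48 and 0.12. The part of spermatid RNA in these values was not tested. No member had a stage difference of 5.03 or more on its representative probe set. The largest was the 2.40 of Adcy10, which was at -0.30 (limma adjusted p = 0.597) in knockout spermatocytes. Prkar1b 1434325_x_at, at 4.45 with stage in wild type, was at -0.22 there (limma adjusted p = 0.775).

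Adcy10 was the only member whose representative probe set differed by at least 2 on the log2 scale between its lowest and highest group mean (2.70), and its profile was compared with those of 10756 other genes with a mean signal of at least 100 in a group. The most alike, by the root mean square difference of profiles centred over the 8 arrays, were Reln at 0.106 and 4931439C15Rik at 0.122 on the log2 scale. Reln, which encodes an extracellular protein known from the developing brain, had group means of 113 and 85.9 in wild type and knockout spermatocytes and 514 and 377 in wild type and knockout spermatids.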

How the data were processed

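The authors background-corrected, normalized and summarized the arrays with RMA and deposited the result as log2 values per probe set, which were used here without further normalization; the build behind the annotation is not given in the sources used here. All groups of 2 arrays were fitted in a single model with limma 3.58.1 (R 4.3.3), with a mean for each of the 4 groups, 4 residual and 5.85 prior degrees of freedom and Benjamini-Hochberg adjustment over 45037 probe sets, 64 control probe sets left out. Signal is 2 to the power of the log2 value. RMA sets all arrays to 1 distribution, so a shift shared by most transcripts is removed, and 33.2% to 35.4% of probe sets per array had a signal of 100 or more. Replicates correlated at 0.995 to 0.997 across probe sets. The number of arrays limits precision: an exact permutation test of 2 against 2 arrays gives no p under 0.333. Probe sets were named from the platform annotation (34945 with 1 gene, 932 with several, 9160 with none). All members are named; of each pathway list, the 2 called genes with the largest rise and the 2 with the largest fall with stage in wild type and with genotype in spermatids, and genes by level from a mean signal of 100. Members and lists were chosen with earlier results of these data known. Alternatives were cyclic loess, equal medians of expressed probe sets, a signal filter of 100 on 4 arrays, the replicate block, a variance trend, single cell types, the mean over a gene's probe sets and leaving out each array. The model was tested on simulated data.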

Additional observations from a re-analysis of the deposited data

Results flagged for a closer look

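The knockout effect on Prkar2b (probe set 1430640_a_at) differed between the stages by the interaction test, with a value of -0.78 on the log2 scale (limma adjusted p = 0.0396): it was -0.84 in spermatids and -0.06 in spermatocytes. The call was lost in each fit that left out 1 array and under both scalings.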

How the results depend on the processing

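Over all probe sets, the count called was 24016 for stage in wild type and 28353 in the knockout, 717 and 6514 for genotype in spermatocytes and spermatids, and 2073 for the interaction. Cyclic loess gave 1197 for the interaction, a variance trend 3241, equal medians of expressed probe sets 10392 for genotype in spermatids, and the spermatocyte arrays alone 80. The signal filter, which tests fewer probe sets, gave 14898 and 15303 for stage. Leaving out single arrays gave 119 to 999 for genotype in spermatocytes, 2588 to 7268 in spermatids and 228 to 2197 for the interaction. With equal medians of expressed probe sets the median over all genes for stage was 0.45 in wild type and 0.74 in the knockout, against 0.15 and 0.21. Of the members, 2 were called between genotypes in spermatids and 1 in the interaction; these became 1 and 0 after cyclic loess and with equal medians, 1 to 3 and 0 to 1 without single arrays, and the interaction had 0 with the mean over a gene's probe sets and 2 with a variance trend. That mean reversed Prkar1a (-0.82 in wild type and -0.92 in the knockout) and Prkar2b (-0.35 and -0.81) for stage, because it includes probe sets that fell. The replicate numbers did not pair the arrays: same-numbered arrays deviated from their group means with correlations of -0.13 to 0.14. With the replicate block 1 member was called between genotypes in spermatids, Prkaca being lost, and 6090 probe sets. A crossed replicate block with the numbers of the wild type spermatids exchanged, chosen after seeing the data, gave 24355, 28685, 781, 6892 and 2396 probe sets. The cause was not tested for the changes above, other than those of the filter and the mean.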
